A study of Mus musculus with 4 samples.

Results

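Pou5f1, Nanog, Sox2, Esrrb, Klf2, Klf4, Klf5, Zfp42 and Tfcp2l1 encode core and naive pluripotency factors. Their RNA was compared between a control and a differentiation group of mouse spermatogonial stem cells. They were found by symbol in the deposited table of 31600 features. Of the 9 factors, 8 had a row and Nanog was not analysed here. Spermatogonial stem cells are the germline stem cells of the testis. The control group (2 libraries) carries the genotype label WT, and the differentiation group (2 libraries) carries Differentiation in that field. All 4 libraries are labelled as spermatogonial stem cells. No source used here gives the age or strain of the animals, the way the differentiation group was made or its time.

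In embryonic stem cells, the POU factor encoded by Pou5f1 and the HMG-box factor encoded by Sox2 bind DNA together and hold the pluripotency network active with Nanog. Esrrb, Klf2, Klf4, Klf5 and Tfcp2l1 support the naive state downstream of LIF and WNT signals, and Zfp42 (REX1) is a widely used reporter of that state. In the germline, Pou5f1 is kept on in primordial germ cells and undifferentiated spermatogonia, whereas Zfp42 is known from spermatocytes and several Klf genes serve widely in somatic tissues.

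Ribosomal RNA had been depleted before sequencing, and FPKM counts fragments per exon length and per library depth. Levels of different genes can therefore be compared only roughly. The libraries corresponded to 17771904 to 20650099 fragments. Features taken as ribosomal-RNA-like by their symbols held 22.6% and 20.8% of fragments in control and 18.3% and 17.7% in differentiation. The main fit did not rescale for this difference. The labelled cell type was checked against markers. All 6 germ cell markers (Ddx4, Dazl, Mael, Tex101, Stk31 and the meiotic gene Sycp3) rose, from a summed 522 to 526 FPKM in control to 1080 to 1081 FPKM in differentiation. The authors' log2 fold changes were lowest for Dazl (0.415) and Ddx4 (0.872) and highest for Sycp3 (1.618) and Tex101 (1.852). Markers of undifferentiated spermatogonia, whose list holds Sall4 and Lin28a, summed to 150 and 153 FPKM in control and 50.5 FPKM in both differentiation libraries. Of these 13 markers, 9 fell, 3 were not called and 1 rose, where 27.0% of all features tested fell and 29.6% rose. The marker that rose was Id4, known from the stem cell fraction and named after its value was seen, at 3.00 and 2.89 FPKM in control against 12.3 and 12.6 FPKM in differentiation (limma adjusted p = 0.000166). Markers of spermatocytes and spermatids summed to 42.7 and 45.4 FPKM in control and 666 and 680 FPKM in differentiation, with 9 of 11 tested higher. The authors' log2 fold changes were 7.324 for Ldhc and 5.485 for Piwil1. For Prm1, Prm2, Acrv1 and Spaca1 the authors' adjusted p (test not named) was 0.217, 0.797, 0.713 and 0.0865. It was 0.0316 for Tnp2 and 1.26e-37 for Acr, both higher, and 0.0269 for Ovol2, which was lower (authors' log2 fold change -0.965). Markers of meiotic germ cells thus stood beside those of the labelled cell type, and the sum does not separate later cells.

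The promoters of 3 factors show the sequence context of the largest fall (Pou5f1), the rise (Zfp42) and the highest control level (Klf4). Each stretch holds 200 bases on GRCm38.p6, written 5′ to 3′ on the gene's strand, that lie before both the RefSeq start and the GENCODE gene start. The Pou5f1 stretch therefore stops short of its RefSeq start, whereas those of Zfp42 and Klf4 end just before it. The stretches are chr17:35505818-35506017 on the plus strand for Pou5f1, chr8:43307010-43307209 on the minus strand for Zfp42 and chr4:55532476-55532675 on the minus strand for Klf4. Capitals mark matches on either strand to the POU octamer ATGCAAAT, the GC box GGGCGG, the nuclear receptor hexamer AGGTCA and the E-box CACGTG.
Pou5f1: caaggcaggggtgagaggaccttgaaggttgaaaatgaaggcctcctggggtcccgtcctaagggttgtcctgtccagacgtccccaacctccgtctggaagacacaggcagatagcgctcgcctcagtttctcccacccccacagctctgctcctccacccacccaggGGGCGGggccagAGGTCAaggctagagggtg
Zfp42: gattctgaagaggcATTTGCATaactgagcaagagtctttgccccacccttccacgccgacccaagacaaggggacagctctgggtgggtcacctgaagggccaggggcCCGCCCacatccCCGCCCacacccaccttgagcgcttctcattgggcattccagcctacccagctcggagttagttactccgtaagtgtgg
Klf4: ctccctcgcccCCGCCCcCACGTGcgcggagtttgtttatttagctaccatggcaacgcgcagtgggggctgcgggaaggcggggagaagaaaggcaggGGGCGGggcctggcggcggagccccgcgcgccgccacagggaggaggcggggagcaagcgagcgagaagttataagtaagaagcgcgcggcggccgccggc
Matches were searched over up to 250 bases before the RefSeq start, leaving out bases past the GENCODE gene start. The POU octamer was found in Zfp42 alone among the 7 factors with a RefSeq promoter, 186 bases before the RefSeq start. It lies there on the strand opposite to the gene, so the printed stretch reads ATTTGCAT. The octamer occurred in 1.6% of all 32851 promoter windows of 250 bases. The Pou5f1 promoter held a GC box 45 bases and the hexamer AGGTCA 33 bases before the RefSeq start, motifs present in 32.7% and 14.0% of the windows. Zfp42 held 2 GC boxes, Klf2 2, Sox2 2 and Klf4 4, of which the pair farthest from the Klf4 start overlaps. Sox2 also held AGGTCA, and Klf4 held the E-box, which occurred in 6.02% of the windows. None of these letters occurred in the window of Esrrb or Tfcp2l1. A match is a description of letters and was not tested as a binding site.

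All 8 factors with a row were above 0 FPKM in all 4 libraries. Of these, 7 reached a mean of at least 0.5 FPKM over the libraries and were tested with limma on log2(FPKM + 1), with Benjamini-Hochberg adjustment over all 23138 features tested. At an adjusted p under 0.05, 5 of the 7 fell (Pou5f1, Sox2, Klf2, Klf4 and Klf5), 1 rose (Zfp42) and 1 was not called (Tfcp2l1). Sox2 and Klf2 missed the threshold without the second control library, where fewer of all features tested were called too. Over all features tested, 27.0% fell, 29.6% rose and 56.6% were called in either direction. Sox2 averaged under 0.5 FPKM in differentiation and passed the filter through its control level, so its count is not independent of its direction. The median log2 fold change of the 7 was -0.69, against 0.01 for all features tested. Control and differentiation libraries did not overlap for any of the 8 factors with a row, against 79.9% of all features tested. Control was the higher group for 6 of the 8, against 39.1% of the features tested. In the authors' deposited table, 7 of the 8 had an adjusted p under 0.05, against 42.3% of its features. In bulk RNA, fewer cells of a type and less RNA per cell cannot be told apart. Nothing in the labels ties the replicates to separate cultures or animals, so the p-values measure only the spread between these libraries, which may be technical.

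**Figure D1:**
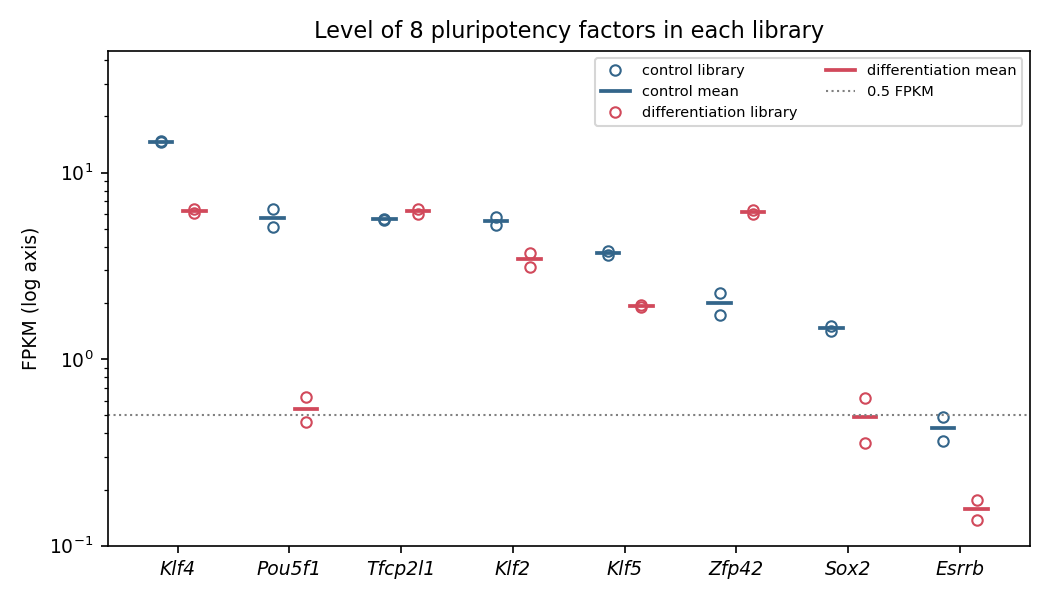
FPKM (log axis) of each pluripotency factor in every library, with open circles for libraries, short lines for group means and a dotted line at the filter of 0.5 FPKM. Pou5f1 dropped from 5.12 and 6.35 FPKM to 0.626 and 0.459 FPKM, whereas Zfp42 rose from 1.72 and 2.27 FPKM to 5.98 and 6.29 FPKM.

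Pou5f1 (ENSMUSG00000024406, OCT4), the POU factor at the centre of the network, lies on GRCm38 chr17:35506018-35510772 on the plus strand and has 6 exons when its transcripts are merged. It was measured at 5.12 and 6.35 FPKM in the control libraries and at 0.626 and 0.459 FPKM in the differentiation libraries. Both control libraries were above both differentiation libraries. The group means were 5.74 ± 0.873 and 0.542 ± 0.118 FPKM (SD, n = 2 per group), 10.6-fold lower in differentiation. The log2 fold change was -2.12 (SE 0.14, limma adjusted p = 0.000731), and limma-voom on fragments, where 1 FPKM is not added, gave -3.40 (SE 0.29). In control, 62.1% of the protein-coding features in the table had a lower mean than Pou5f1, and in differentiation 23.3%. The differentiation values rest on 25 and 21 fragments (exact Poisson intervals at 95% of 16.2 to 36.9 and 13.0 to 32.1, counting error only), against 224 and 295 in control.

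An antisense gene, Gm19553, lies within the Pou5f1 locus on the opposite strand (chr17:35509077-35510551) and shares 317 of its 494 exonic bases with Pou5f1 exons. Gm19553 was at 10.6 and 11.5 FPKM in control and at 0.683 and 0.696 FPKM in differentiation. Its log2 fold change was -2.83, the same direction as for Pou5f1, at a limma adjusted p of 0.000144. No source used here says whether counting used strand, and without it the reads of the pair cannot be told apart.

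Sox2 (ENSMUSG00000074637), the HMG-box partner of the POU factor, is a gene with 1 exon at chr3:34650405-34652461 on the plus strand. It was at 1.42 and 1.51 FPKM in control and at 0.356 and 0.621 FPKM in differentiation. Both control libraries were above either differentiation library, and the differentiation libraries lay farther from each other than the controls did. The means were 1.47 ± 0.0586 and 0.488 ± 0.187 FPKM (SD, n = 2 per group), 3.00-fold lower in differentiation. On the log2 scale the change was -0.73 (SE 0.13, limma adjusted p = 0.0111). The control libraries held 57 and 64 Sox2 fragments and the differentiation libraries 13 and 26. Limma-voom on fragments gave -1.59 (SE 0.34), and without the second control library the limma adjusted p was 0.054. The non-coding transcript Sox2ot spans Sox2 on the same strand and shares no exonic base with it. Sox2ot was at 0.244 and 0.163 FPKM in control and at 0.422 and 0.407 FPKM in differentiation, too low for the test.

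Esrrb (ENSMUSG00000021255; chr12:86361117-86521628, plus strand), an orphan nuclear receptor that can stand in for Nanog in embryonic stem cells, was the lowest of the 8 in both groups. It was at 0.365 and 0.489 FPKM in control and at 0.177 and 0.138 FPKM in differentiation. The control libraries were higher, on 43 and 61 fragments against 19 and 17. The means were 0.427 ± 0.0871 and 0.157 ± 0.0274 FPKM (SD, n = 2 per group), and 21.3% and 10.0% of protein-coding features had a lower mean. Esrrb was under the filter and not part of the main test. With no filter its log2 fold change was -0.30 (limma adjusted p = 0.0339), where 21.0% of 31600 features fell.

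Klf4 (ENSMUSG00000003032; chr4:55527143-55532466, minus strand), a zinc finger factor used in reprogramming and known in the testis from Sertoli cells and postmeiotic germ cells, was the highest of the 8 in control. It was at 14.6 and 14.7 FPKM in control and at 6.05 and 6.38 FPKM in differentiation. Libraries of a group lay close together and the groups lay far apart. The mean fell 2.36-fold, from 14.7 ± 0.0561 (SD, n = 2) to 6.22 ± 0.230 FPKM (SD, n = 2), and the log2 change was -1.12 (SE 0.05, limma adjusted p = 0.000271).

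Klf5 (ENSMUSG00000005148; chr14:99298691-99315036, plus strand), which acts in the inner cell mass and in many epithelia, was at 3.64 and 3.80 FPKM in control. In differentiation it was at 1.89 and 1.95 FPKM, below both controls. The means were 3.72 ± 0.115 and 1.92 ± 0.0366 FPKM (SD, n = 2 per group), and the log2 change was -0.69 (SE 0.08, limma adjusted p = 0.00343).

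Klf2 (ENSMUSG00000055148; chr8:72319033-72321656, plus strand), a naive-state factor also known from endothelium, was at 5.23 and 5.79 FPKM in control and at 3.72 and 3.14 FPKM in differentiation. The groups were separate but closer than for Klf4, with means of 5.51 ± 0.399 and 3.43 ± 0.410 FPKM (SD, n = 2 per group). The log2 fold change was -0.56 (SE 0.10, limma adjusted p = 0.0117). The call was lost without the second control library (adjusted p = 0.0601) or the second differentiation library (adjusted p = 0.0558).

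Zfp42 (ENSMUSG00000051176; chr8:43295063-43306980, minus strand), a zinc finger protein of the YY1 family, moved the other way. It was at 1.72 and 2.27 FPKM in control and at 5.98 and 6.29 FPKM in differentiation. Both differentiation libraries were above both controls. The mean rose 3.08-fold, from 1.99 ± 0.385 (SD, n = 2) to 6.14 ± 0.219 FPKM (SD, n = 2), and the log2 change was 1.26 (SE 0.12, limma adjusted p = 0.00188). Behind these values were 63 and 88 control fragments against 200 and 241 differentiation fragments.

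Tfcp2l1 (ENSMUSG00000026380; chr1:118627945-118685168, plus strand), a grainyhead-like factor of the LIF pathway, was at 5.66 and 5.60 FPKM in control and at 5.97 and 6.41 FPKM in differentiation. The differentiation libraries were both slightly higher. The log2 fold change was 0.12 (95% interval -0.05 to 0.28, limma adjusted p = 0.176), which did not pass the threshold. A limma-voom fit on recovered fragments, with 1001 to 1231 fragments per library, gave 0.14 (adjusted p = 0.0431), where 62.6% of features were called. With limma the change shrank to 0.04 under median centring (adjusted p = 0.605) and 0.02 under quantile normalization (adjusted p = 0.824).

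Processed pseudogenes of at least 90% identity over at least 200 bases exist for Klf4 (Gm48640), Klf5 (Gm6007) and Zfp42 (Zfp42-ps1, 98.1% identical over 266 bases). They had no values used here, so reads shared with them could not be separated, and none was found for the other 5 factors.

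**Figure D2:**
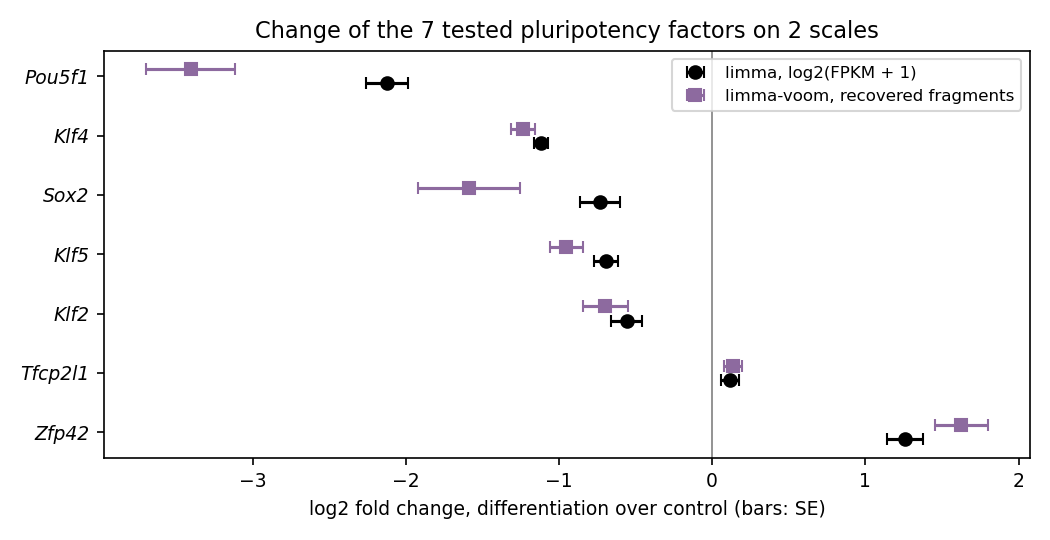
Log2 fold change (differentiation over control) of the 7 tested factors, by limma on log2(FPKM + 1) (black circles) and by limma-voom on recovered fragments (purple squares), with bars for the standard error. On the first scale Pou5f1 lies lowest at -2.12 and Zfp42 highest at 1.26, and each factor has the same sign on both scales.

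The order of FPKM values changed between groups, where close values of different genes do not rank their RNA. In control, Klf4 stood above all others and Pou5f1, Tfcp2l1 and Klf2 followed at 5.74, 5.63 and 5.51 FPKM, with overlapping libraries between neighbours in that order. Klf5, Zfp42, Sox2 and Esrrb came next, each separate from its neighbour. In differentiation, Klf4, Tfcp2l1 and Zfp42 shared the top at 6.22, 6.19 and 6.14 FPKM with overlapping libraries. Klf2 and Klf5 followed separately, Pou5f1 and Sox2 overlapped at 0.542 and 0.488 FPKM, and Esrrb was lowest. The 8 factors together summed to 37.8 and 40.5 FPKM in control and to 24.8 and 25.4 FPKM in differentiation.

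By Euclidean distance in log2(FPKM + 1) over the 4 libraries, the protein-coding features nearest to Pou5f1 were Ifit1 (distance 0.432), C1qa (0.452) and Rsad2 (0.463). Ifit1 and Rsad2 are interferon-induced genes, and C1qa, a complement gene, is in the macrophage marker list. Those nearest to Zfp42 were AB124611 (0.124), Dnaaf3 (0.143) and Spata33 (0.148).

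The Klf genes beyond the 3 members were mostly lower. Of the 14 other Klf genes, all had a row, 12 were tested and 9 fell, 0 rose and 3 were not called. Over all features tested, 27.0% fell and 29.6% rose. Klf6, a broadly expressed growth regulator, went from 26.3 ± 0.703 to 11.8 ± 0.465 FPKM, and Klf8 from 8.04 ± 0.124 to 2.44 ± 0.00796 FPKM (SD, n = 2 in each group). Their log2 fold changes were -1.10 and -1.40 (limma adjusted p = 0.000258 and 0.00031), and Klf13 fell by 1.08. Klf10, the highest paralog, fell from 30.3 to 24.5 FPKM, a smaller change of -0.30. All 17 Klf genes summed to 154 and 156 FPKM in control and to 88.8 and 89.0 FPKM in differentiation. Of 15 tested, 12 fell and 0 rose by limma, also 0 at an unadjusted p under 0.05 and 0 by limma-voom. Klf1, named after its value was seen, was the 1 tested Klf gene with a positive change (0.31, limma adjusted p = 0.2).

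**Figure D3:**
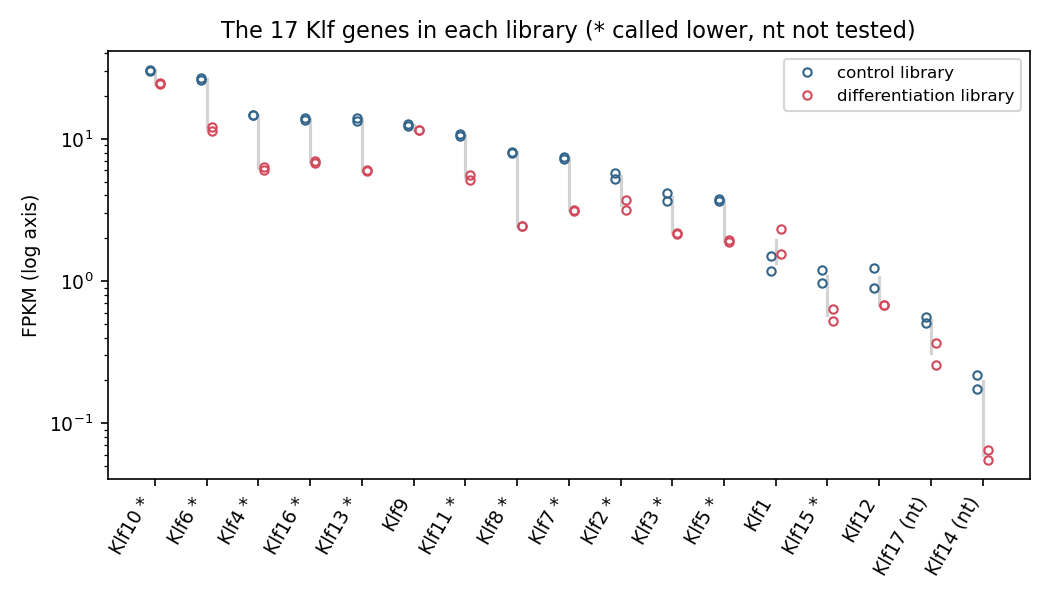
FPKM (log axis) of the 17 Klf genes in each library (circles), with a grey line between group means, an asterisk for a call and nt for genes not tested. The family's 12 called genes were lower in differentiation, from Klf8 (8.04 to 2.44 FPKM) to Klf10 (30.3 to 24.5 FPKM).

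Paralogs of the other members moved in both directions. Of the 14 tested paralogs outside the Klf family, 4 fell, 6 rose and 4 were not called, with a median log2 fold change of 0.18. Over all features tested, 27.0% fell and 29.6% rose, so the share of these paralogs that fell was near that of all features. With the Klf genes above, the list of 41 paralogs had 26 tested, of which 13 fell and 6 rose, with a median of -0.34. In the POU family, 3 of 6 tested paralogs rose and 2 fell. Pou6f1 rose from 2.00 ± 0.0635 to 15.6 ± 0.188 FPKM (SD, n = 2 in each group), opposite to Pou5f1, with a log2 fold change of 2.46 and a limma adjusted p of 0.000106. Pou2f1, the highest paralog of the family, went from 9.02 to 12.1 FPKM. Sox3, a SOXB1 gene active in spermatogonia, fell with Sox2, from 9.95 to 2.79 FPKM (log2 fold change -1.53). Esrra, the highest Esrrb paralog, was at 5.33 and 5.53 FPKM and was not called (limma adjusted p = 0.588). Yy1, of the same zinc finger family as Zfp42, rose from 14.9 to 26.1 FPKM, and Ubp1, a paralog of Tfcp2l1, from 20.6 to 26.7 FPKM.

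Genes that work with these factors in embryonic stem cells were listed as network partners. Of 36 listed, 33 had a row and 24 were tested, of which 15 fell and 4 rose, with a median of -0.57. The shares over all features tested were 27.0% lower and 29.6% higher. Sall1, among those that fell, passed the filter through its control level. Fewer partners rose with any library left out, and so did fewer of all features tested. The RNA-binding regulator Trim71 went from 41.3 to 10.3 FPKM (log2 fold change -1.91), Sall4 from 29.2 to 7.61 FPKM (-1.81) and Lin28a from 17.7 to 4.60 FPKM (-1.74). Rif1, a telomere and replication factor, rose from 27.9 to 50.3 FPKM (0.83).

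Among germ cell factors and receptors linked to control of Pou5f1, 14 of 18 were tested, 9 fell and 3 rose, with a median of -0.92. Of all features tested, 27.0% fell and 29.6% rose. This list shares Sall4, Lin28a and Prdm14 with the network partners. Dmrt1, a germ cell factor that restrains pluripotency genes, fell from 50.9 ± 0.410 to 11.0 ± 0.0431 FPKM (SD, n = 2 in each group). The receptor tyrosine kinase gene Kit fell from 31.0 ± 0.861 to 7.69 ± 0.0564 FPKM (SD, n = 2 in each group). The orphan receptors Nr2c2 and Nr2c1, known to bind repeats of the AGGTCA hexamer, rose from 9.29 to 24.8 FPKM and from 1.87 to 2.82 FPKM. Kdm1a, a histone demethylase, rose from 27.5 to 34.0 FPKM.

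Most genes listed for the signals that feed the naive state were lower in RNA, and signalling itself was not measured. All 20 listed LIF, BMP and WNT genes were tested, 15 fell and 3 rose, with a median of -0.35. The shares over all features tested were 27.0% lower and 29.6% higher. Bmp4, among those that fell, passed the filter through its control level. With any library left out fewer of these genes fell, and so did fewer of all features tested. The ligand gene Lif rose from 2.04 to 4.82 FPKM, whereas its receptor gene Lifr fell from 9.58 to 5.53 FPKM. The BMP target genes Id1 and Id3 fell from 18.8 to 8.48 FPKM and from 10.9 to 3.47 FPKM, while the BMP effector gene Smad5 rose from 13.2 to 22.2 FPKM. Lef1, a WNT effector gene, rose from 0.656 to 2.58 FPKM.

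Genes of the primed and formative state, which follows the naive state in the embryo, were also mostly lower, against 27.0% of all features tested. Of 10 tested, 8 fell and 1 rose, with a median of -0.46. When any of the 4 libraries was left out, fewer of them and fewer of all features tested fell. Sox4, the methyltransferase gene Dnmt3b and Fgfr1 fell from 50.6 to 17.1, 12.9 to 3.82 and 18.1 to 6.07 FPKM. Lef1, the gene that rose, is also in the LIF, BMP and WNT list. Sox3 and Pou3f1, which fell, are also in the list of paralogs. Of 31 transcripts listed as non-coding RNAs of this network, 14 were tested, 7 fell and 2 rose. When any of the libraries was left out, fewer of them and fewer of all features tested rose. The annotation gives Platr25 and Platr17 as protein-coding, and without them 12 were tested, 6 fell and 1 rose. Of all features tested, 27.0% fell and 29.6% rose. Platr3, Platr4 and Lncenc1, 3 of the 7 that fell, averaged under 0.5 FPKM in differentiation and passed the filter through their control level, so their count is not independent of its direction. Platr16 and Platr25 fell from 3.30 to 0.914 and 5.73 to 2.69 FPKM, and Platr17 and Platr20 rose by 0.52 and 0.44 on the log2 scale. Platr3 was at 2.37 and 2.59 FPKM in control and at 0 and 0.358 FPKM in differentiation, and Platr4 at 1.47 and 1.57 against 0.331 and 0.539 FPKM.

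**Figure D4:**
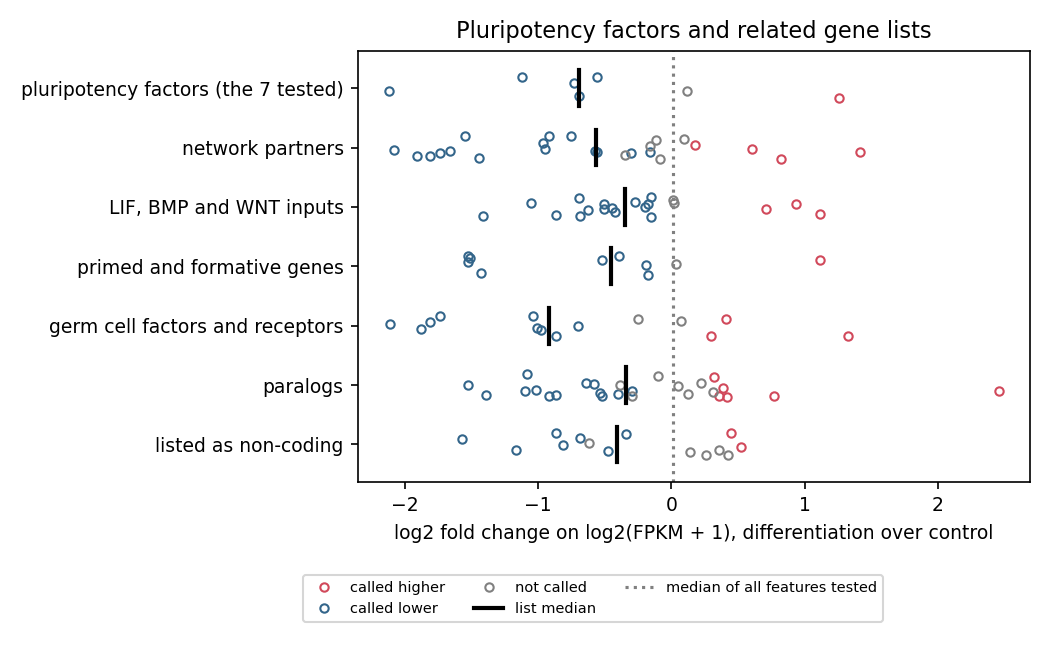
Log2 fold change (differentiation over control) on the log2(FPKM + 1) scale for tested genes of the pluripotency factors and 6 related lists; each point is a gene, black bars are list medians and the dotted line the median of all features tested. List medians run from -0.92 (germ cell factors and receptors) to -0.34 (paralogs).

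Markers of other cells moved between the same libraries, where 27.0% of all features tested fell and 29.6% rose. The 12 fibroblast and peritubular markers summed to 249 FPKM in both control libraries and to 81.9 and 88.5 FPKM in differentiation, with 11 of 12 lower. The macrophage and leukocyte markers summed to 68.7 and 70.8 FPKM in control and to 18.9 and 19.0 FPKM in differentiation, with 8 of 9 tested lower and 1 higher. Endothelial markers summed to 16.9 and 17.0 against 9.73 and 10.3 FPKM, with 3 of 7 tested lower. Epithelial markers summed to 27.6 and 29.3 against 25.7 and 26.0 FPKM, with 1 of 6 tested higher and 1 lower. Sertoli markers summed to 123 and 125 against 126 and 136 FPKM, with 3 of 8 tested higher and 3 lower. Leydig markers summed to 37.1 and 38.2 against 20.9 and 21.3 FPKM, with 1 of 4 tested higher and 2 lower. Markers of differentiating spermatogonia summed to 372 and 378 against 226 and 231 FPKM, with 2 of 8 tested higher and 5 lower. Not every listed marker had a row: 8 of 9 did for differentiating spermatogonia and 12 of 13 for spermatocytes and spermatids. For Sertoli cells 9 of 10 had a row, and for Leydig cells 5 of 6. Klf2, Klf4 and Klf5 are also expressed in such somatic cells, and the part of these markers in the changes of the members was not tested.

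**Figure D5:**
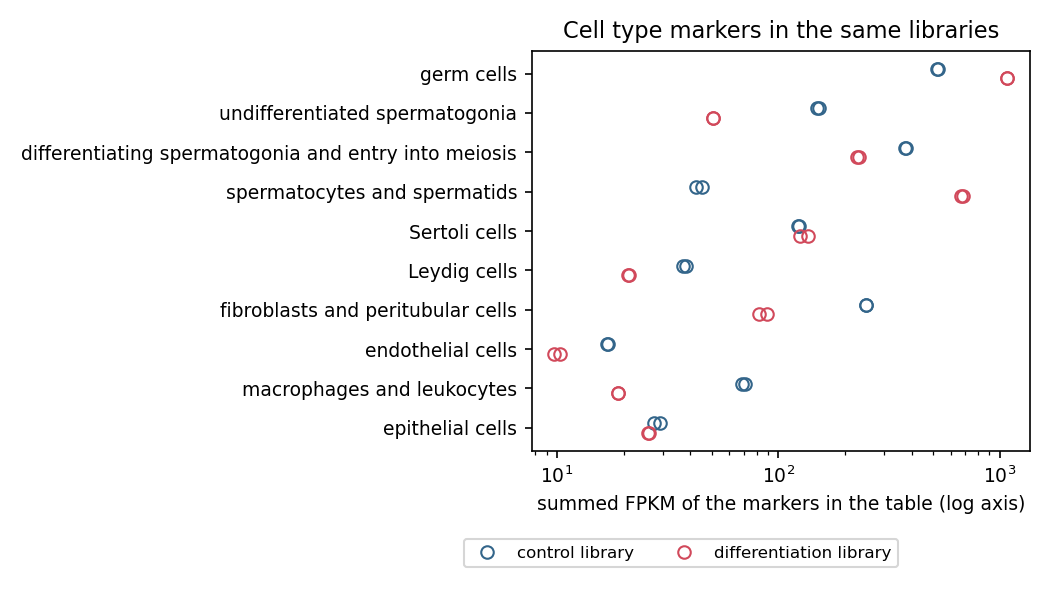
Summed FPKM (log axis) of marker lists for germ and somatic cell types in each library. Sums for spermatocytes and spermatids rose to 666 and 680 FPKM, while those of fibroblasts and peritubular cells fell to 81.9 and 88.5 FPKM.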

How the data were processed

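RNA of 2 control and 2 differentiation libraries was sequenced after depletion of ribosomal RNA, per the labels' protocols. HISAT2 and GRCm38 were used, per the submitters' processing notes; the sources used here name no annotation, counter or strand setting. The authors deposited FPKM per feature and library, with their own log2 fold change and p-value, whose test they do not name.

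Fragments were recovered from FPKM with GENCODE M21 exonic lengths: of the features under 300 fragments, 96.2% came out whole (tolerance 0.05). Groups were compared by limma 3.58.1 (R 4.3.3), fitted with an intensity trend to log2(FPKM + 1) of 23138 features whose mean reached 0.5 FPKM, a scale that understates changes of low genes. The test was two-sided, with 2 residual and 2.14 prior degrees of freedom. An exact permutation test of 2 against 2 cannot go below p = 0.333 and was not used. Near copies were searched with blastn 2.17.0 and promoters came from RefSeq. Python 3.11.15, pandas 2.3.3, numpy 2.4.6, scipy 1.17.1 and matplotlib 3.10.9 were used for tables and figures.

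Genes named were all members, the up to 4 genes with the lowest p in each list, genes called against a list's majority where there were 3 or fewer, the highest paralog of each family and the 3 features nearest to Pou5f1 and Zfp42. The members and lists were chosen with earlier results of these data known. Alternatives covered the pseudocount, the filter, the scaling, the intensity trend, limma-voom on fragments, a replicate block and the omission of each library. Rescaling without ribosomal-RNA-like features and the count over all Klf genes were chosen after seeing the data. The limma fit was also run on simulated data with far fewer changed features than were called here, which does not bear on the calls.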

Additional observations from a re-analysis of the deposited data

How the results depend on the processing

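The directions of the 7 tested factors held under every one of the 14 alternatives in which each was tested. Pou5f1, Klf4, Klf5 and Zfp42 kept an adjusted p under 0.05 in all of them, with highest values of 0.0155, 0.0102, 0.0303 and 0.0294. The count of factors that fell was 5, and fewer fell without the second control or the second differentiation library. Limma-voom on fragments gave 2 that rose, Tfcp2l1 being the second. Sox2 was not tested at a mean of at least 1 FPKM. Network partners that rose (4) numbered 2 under quantile normalization and 2 to 3 with a library left out, 2 each without the first control and the first differentiation library. Signalling genes that fell (15) numbered 9 to 11 with a library left out, 9 without the first control library, and primed and formative genes that fell (8) numbered 4 to 5. Transcripts listed as non-coding that rose (2) numbered 5 with no filter, 1 under median centring, 1 under quantile normalization and 0 to 1 with a library left out. Transcripts listed as non-coding that fell (7) numbered 4 at a mean of at least 1 FPKM. The replicate block gave 5 factors that fell and 1 that rose, with 6510 features higher and 5788 lower over all features, and changed no call of a factor; the numbers did not pair the libraries (correlation of deviations -0.000408). Scaling moved the median of all features to -0.062 under median centring and -0.085 under quantile normalization. With 2 libraries per group, the spread between libraries limits small changes such as that of Tfcp2l1. The Tfcp2l1 change also depended on scaling, from 0.12 in the main fit to 0.02 under quantile normalization. The 13 to 64 fragments per library limit Sox2 and Esrrb.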
